A study of Arabidopsis thaliana with 12 samples.

Results

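Pectin genes are the genes of Arabidopsis thaliana whose description in the deposited 14 h or 2.5 h annotation holds the word pectin. There were 234 of them among the 29976 genes that the tables name, and 221 had at least 1 accessible region with the same coordinates in all 12 libraries, out of 28321 genes that did. These 221 genes held 692 of the 99054 shared regions. The assay was ATAC-seq: the transposase Tn5 cuts and tags DNA that is not packed away, so read counts measure how accessible a region was. The level of a gene is its summed count in CPM, counts per 1e6 counts of a library. The study compared roots of seedlings aged 7 days after sowing in 4 groups of 3 libraries. Uncut roots were Col-0, the reference accession, cut to a piece of equal size, and 50000 nuclei of DAPI-stained protoplasts were used per library. The regenerating groups were collected 2.5 h, 14 h and 16 h after about 130 µm of the tip had been removed, from the 200 µm or so above the wound. They carried MP::MP-GFP, a fusion of MONOPTEROS to GFP driven by the MP promoter, and 1000 GFP-positive nuclei were used per library (2000 in 16 h replicate 3). Walls were digested to free the protoplasts in every group. Line, sort and nuclei number all differ between uncut and regenerating roots, and their effects and that of excision cannot be told apart. Nothing in the labels says that the libraries of a group came from separate pools of plants, so p-values measure the spread between these libraries, which may be technical.

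Pectin is the gel of acidic polysaccharides that glues plant cells together and sets how far a growing wall can give. It is made in the Golgi with its acidic backbone, homogalacturonan, covered by methyl groups. Pectin methylesterases (PMEs) remove these groups in the wall, and PME inhibitors bind the enzymes and stop them. Bare homogalacturonan can be cross-linked by calcium or cut by polygalacturonases and pectate lyases, and pectin acetylesterases remove acetyl groups from the same polymers. In roots the balance of these activities is known to affect cell expansion, cell separation and the walls around emerging organs.

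The description texts placed 12 genes (11 with a shared region) as PMEs by an enzyme name. A further 34 genes (34) had the text for the invertase and PME inhibitor superfamily without the word protein, which is the text given to the enzymes VGD1, VGDH1 and PME17. The text that ends in protein, or names an inhibitor, was held by 72 genes (65), which are called inhibitors here. The pectin lyase-like text was held by 99 genes (94), and it covers the polygalacturonases QRT2, QRT3, PGX1 and ADPG1, the lyase-like PMR6 and also the PMEs PME5, PPME1 and QRT1. There were 12 pectin acetylesterases (12), and 5 genes (5) had a pectinesterase text that also names a domain of unknown function. Which genes with the superfamily text carry a PME domain, and whether a gene of any class is active as its text says, was not examined.

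The regions of pectin genes lay in exons more often than regions did in general. Exons held 390 of the 692 regions, or 56.4%, against 42.9% of all shared regions. Promoters held 15.2% against 21.2%, transcription ends 20.2% against 17.996%, introns 2.02% against 2.19%, and intergenic DNA 6.21% against 15.8%. The median region was 146 bp wide for pectin genes and 135 bp for all. Levels per kb of region were similar from gene to gene in uncut roots, with a median of 60.6 CPM per kb and a range of 41.2 to 121. The highest per kb were AT5G55720 at 121 ± 15.2 (SD, n = 3), PMR6, a pectate lyase-like gene needed for susceptibility to powdery mildew, at 98.5 ± 12.4, and the inhibitors AT3G47380 at 92.7 ± 3.57, AT2G47670 (PMEI6, known from seed mucilage) at 89.1 ± 7.24 and AT5G62350 at 86.5 ± 3.53 CPM per kb. The ranges of mean ± SD of neighbours in this order overlapped, and AT5G55720 rests on 61 bp and PMR6 on 91 bp of region. The medians at 2.5 h, 14 h and 16 h were 58.2, 56.9 and 58.0 CPM per kb. Pectin gene regions took 0.786% to 0.879% of the reads in shared regions of every library.

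Reads in regions numbered 22.5 to 31.8 M in uncut libraries (M for 1e6), 1.83 to 4.78 M at 2.5 h, 10.7 to 17.3 M at 14 h and 1.44 to 2.35 M at 16 h. The libraries of a group differed far more in the regenerating groups. The median ratio of SD to mean over the 221 genes was 0.0789 in uncut roots, 0.532 at 2.5 h, 0.212 at 14 h and 0.258 at 16 h. In the 2.5 h libraries 23.0% to 32.2% of pectin gene regions had no read, against 0.723% to 3.18% at 14 h, 1.73% to 3.61% at 16 h and none in uncut roots. On simulated counts a 4-fold change was called for 89% of changed genes at 14 h and 95% at 16 h against uncut roots, and for 0% at 2.5 h. A 2-fold change was called for 52% of changed genes at 14 h, 44% at 16 h and 0% at 2.5 h. For single regions a 4-fold change was called for 10%, 42% and 0%, in the same order. The simulation gave both groups of a comparison the same spread per gene or region, unlike the real libraries. Its shares may therefore not hold for the real counts. MP itself, the gene of the GFP fusion, summed to 103 to 110 CPM in uncut libraries and 215 to 360 in regenerating ones. The 7 vascular markers, MP included, summed to 459 to 484 CPM in uncut libraries, 547 to 733 at 2.5 h, 611 to 691 at 14 h and 619 to 724 at 16 h. Of these, MP alone passed an edgeR adjusted p under 0.05 against uncut roots, at 14 h and 16 h. The others moved both ways: from uncut roots to 2.5 h the mean of SHR went from 87.6 to 53.9 CPM and that of PXY from 47.5 to 63.1. The list was not summed without MP. The 5 leaf symbols listed name 4 genes, since LHCB1.2 and CAB3 are the same gene, and all 4 had a shared region. They summed to 242 to 252 CPM in uncut libraries, 222 to 301 at 2.5 h, 153 to 190 at 14 h and 164 to 226 at 16 h. None of these genes was at 0 over a group. Root cap (4 genes), endodermis (4) and epidermis (5) markers summed to 114 to 122.8, 205 to 233 and 175 to 196 CPM in uncut libraries, and to 65.3 to 182, 185 to 240 and 119 to 141 at 2.5 h. These lists, in the same order, summed to 107 to 140, 155 to 192 and 162 to 176 CPM at 14 h and to 89.0 to 136, 129 to 177 and 169 to 189 at 16 h. The endodermis sum was thus below the uncut range in every late library and the epidermis sum in every 2.5 h library. Within these lists the genes differed. ESB1 had a mean of 88.7 CPM in uncut libraries, 49.1 at 14 h and 46.1 at 16 h, whereas SCR, MYB36 and CASP1 overlapped uncut libraries at both times. At 2.5 h the mean of GL2 went from 31.4 to 8.42 CPM and that of COBL9 from 105 to 65.7. WER rose in mean from 3.62 to 16.6 CPM. Every 2.5 h library was below uncut for GL2, whereas WER, CPC, COBL9 and RHD6 overlapped. The epidermis fall thus did not rest on GL2 alone. The part of these differences in the results below was not tested. Fewer cells of a type and less open DNA per cell cannot be told apart in sorted pools.

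**Figure D1:**
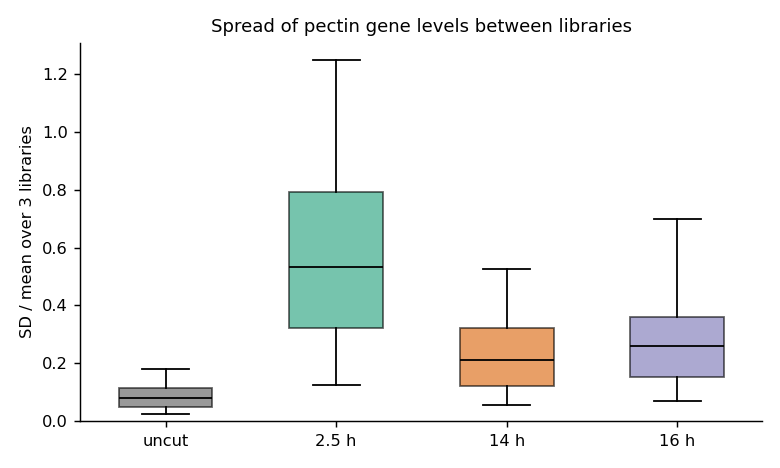
The vertical axis is the SD of a pectin gene's level over the 3 libraries of a group divided by their mean, and the horizontal axis gives the group. Boxes span the quartiles over 221 genes with the median as a line and whiskers from the 5th to the 95th percentile, genes at 0 in all 3 libraries of a group being left out; the uncut box lies lowest and the 2.5 h box highest.

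At 14 h after excision, against uncut roots, 22 of 221 pectin genes fell and 5 rose (adjusted p under 0.05, edgeR quasi-likelihood test with Benjamini-Hochberg adjustment over all genes). That is 9.95% lower and 2.26% higher, against 7.5% lower and 2.68% higher among all 28321 genes tested. At 16 h 11 fell and 1 rose, or 4.98% and 0.452%, against 6.28% and 2.46% of 28320 genes. At 2.5 h no pectin gene passed, where 65 of 28320 genes (0.23%) were lower and 1 (0.00353%) higher. Of the pectin genes at 2.5 h, 6 were higher and 15 lower at an unadjusted p under 0.05, and DESeq2 called 5 higher and 10 lower. Over all genes 2796 of 28320 had such a p, and DESeq2 called 1024 higher and 1277 lower of 28321. Without 2.5 h replicate 1, 2 or 3, edgeR called 1 pectin gene higher and 15, 8 or 13 lower. The same fits called 340, 396 or 384 of all 28320 genes higher and 1499, 1495 or 1363 lower. The median log2 fold change of pectin genes was -0.11 at 2.5 h, -0.09 at 14 h and -0.08 at 16 h, beside -0.06, 0.03 and 0.01 over all genes. The 14 h and 16 h comparisons share the uncut libraries, so their values are given side by side and are not independent.

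**Figure D2:**
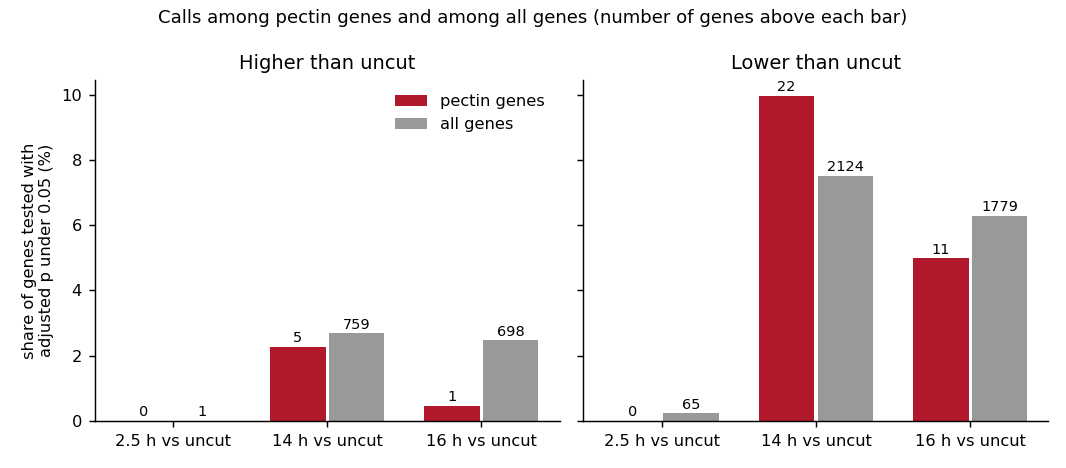
Bars give the share (%) of genes tested that passed an adjusted p under 0.05 in each comparison with uncut roots, higher on the left and lower on the right, for the 221 pectin genes and for all genes. Numbers above the bars count the genes; the pectin bar is the taller of its pair only for genes lower at 14 h (9.95% against 7.5%).

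Scaling and single libraries bear on these counts. Scaling by total reads instead of TMM shifted the median of all genes to 0.15 at 14 h, where TMM gave 0.03, and to 0.12 at 16 h, where TMM gave 0.01. It gave 10 pectin genes higher and 14 lower at 14 h, and 4 and 10 at 16 h, so all changes here are relative to TMM. Over all genes it gave 1792 higher and 1702 lower at 14 h, and 1323 and 1450 at 16 h. Single libraries also moved the counts by more than 1.5 times. At 14 h 0 pectin genes were higher and 4, 5 or 8 lower without uncut replicate 1, 2 or 3. Without 14 h replicate 1, 2 or 3, 12, 11 or 10 were higher and 37, 24 or 18 lower. The same fits called 18, 27 or 51 of all genes higher and 867, 958 or 1083 lower without an uncut replicate. They called 2177, 1774 or 1457 of all genes higher and 3351, 2733 or 2586 lower without a 14 h replicate. At 16 h 0 pectin genes were higher and 4, 4 or 6 lower without uncut replicate 1, 2 or 3. Without 16 h replicate 1, 2 or 3, 3, 7 or 8 were higher and 15, 27 or 15 lower. Of all genes, 18, 23 or 30 were higher and 587, 643 or 731 lower without an uncut replicate. Without a 16 h replicate 1319, 1591 or 1619 of all genes were higher and 2225, 2873 or 2465 lower. Of the 27 pectin genes called at 14 h, 4 passed whichever library was left out: AT1G43080, AT2G15450, AT2G15460 and AT2G15470. Of the 12 called at 16 h, 4 did so: AT1G43080, AT1G14890, AT2G15470 and AT1G11362. AT2G15460 passed in the 4 such fits at 16 h that tested it, and without uncut replicate 1 or 2 it was below the count filter.

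**Figure D3:**
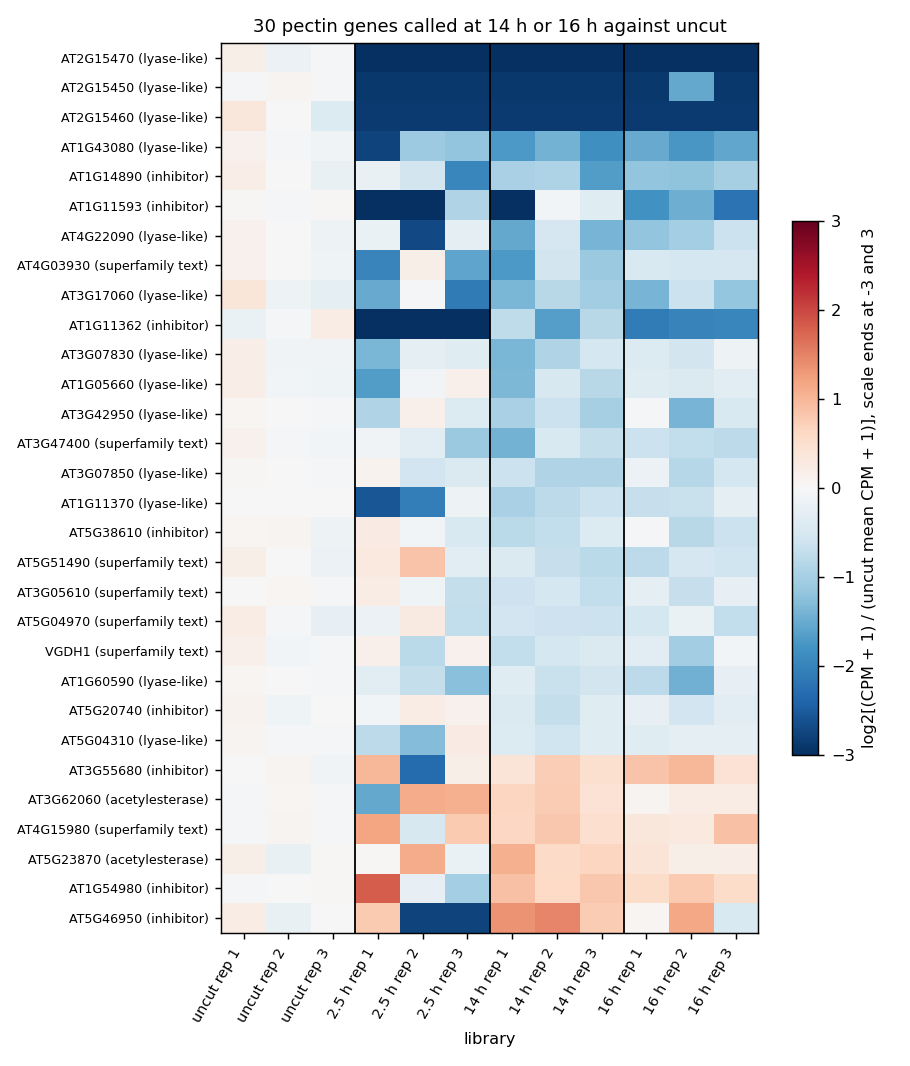
Each row is 1 of the 30 pectin genes called at 14 h or 16 h against uncut roots and each column 1 library, coloured by the log2 ratio of its level plus 1 CPM to the uncut mean plus 1 CPM on a scale ending at -3 and 3. Rows were ordered by their 14 h mean; the uncut columns are near white, the 14 h and 16 h columns carry the called changes, and the 2.5 h columns vary between libraries.

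Taken by range, the libraries separated more often below uncut than above it. At 14 h 64 of 221 pectin genes had all 3 libraries below all uncut libraries (29.0%, against 19.7% of all genes) and 22 had all 3 above (9.95%, against 16.3%). The counts were 46 below (20.8%, against 18.4%) and 23 above (10.4%, against 13.5%) at 16 h, and 42 below (19.0%, against 17.2%) and 11 above (4.98%, against 7.39%) at 2.5 h. No test compared these shares. Every shared region held reads in each uncut library, and regions found only in the 14 h set do not enter. This choice of regions can favour falls over rises, here and in the counts above.

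**Figure D4:**
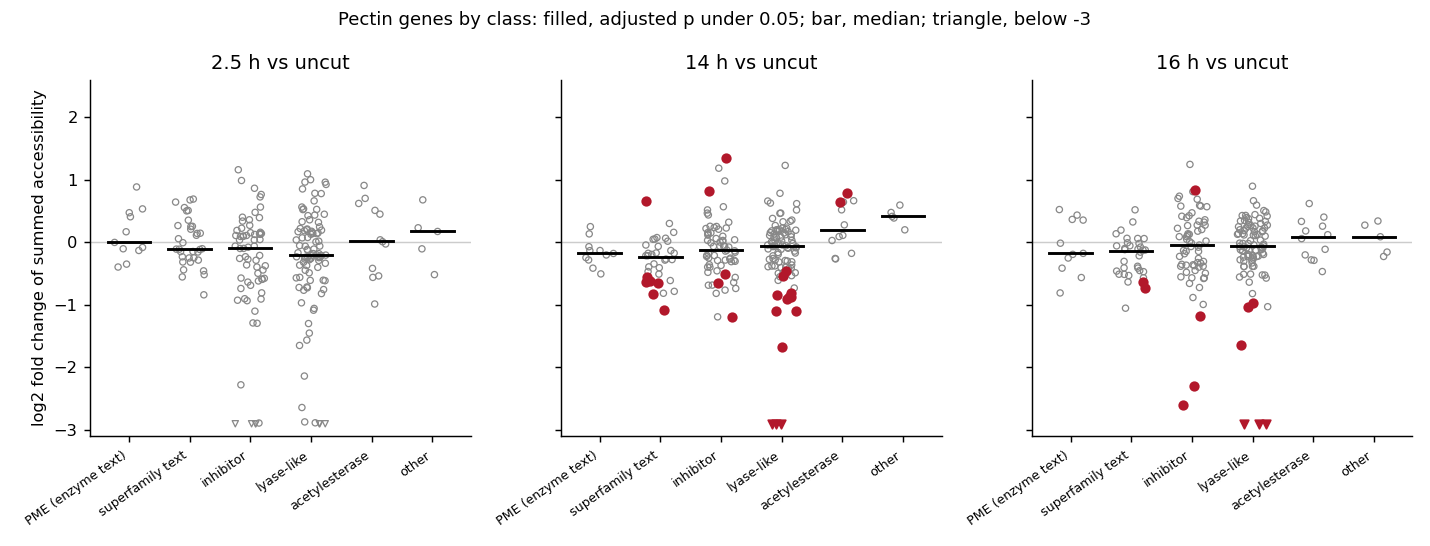
Each point is a pectin gene, placed by its class on the horizontal axis and by its log2 fold change of accessibility against uncut roots on the vertical axis, with 1 panel per time. Filled points passed an adjusted p under 0.05, bars are class medians, and triangles at the lower edge mark genes with a fitted value below -3; at 14 h 13 filled points lie in the lyase-like class, all below 0, and 2 in the acetylesterase class, both above 0.

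None of the 11 PMEs named as enzymes passed at any time. Their median log2 fold change was 0.00 at 2.5 h, -0.18 at 14 h and -0.18 at 16 h. PME3, an enzyme that also takes part in nematode infection, had 46.6, 34.99 and 35.4 CPM in uncut libraries. The 2.5 h libraries held 34.0, 42.7 and 32.2, those of 14 h 31.5, 41.0 and 29.5 and those of 16 h 38.4, 30.3 and 29.9 CPM. Every group overlapped the uncut range. PME2 had a mean of 35.6 ± 5.67 CPM (SD, n = 3) in uncut libraries and 51.2 ± 52.3 at 2.5 h, where replicate 2 stood at 110 and replicate 3 at 10.49, then 33.9 ± 4.48 at 14 h and 45.4 ± 13.9 at 16 h. PME35, listed as PME61 in the tables and known from stem walls, had 87.9 ± 2.77, 117 ± 55.05, 80.2 ± 6.17 and 87.6 ± 13.9 CPM in uncut, 2.5 h, 14 h and 16 h libraries. PMEPCRF had 1 region and stayed low, at 5.95 ± 1.40 CPM in uncut roots and 4.15 ± 3.51 at 14 h.

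Among the 34 genes with the superfamily text, 6 fell and 1 rose at 14 h, and 2 fell at 16 h. That is 17.6% lower and 2.94% higher at 14 h, against 7.5% and 2.68% of all genes, and 5.88% lower at 16 h, against 6.28%. The class median of the log2 fold change was -0.24 at 14 h and -0.14 at 16 h, and 26 of 34 and 27 of 34 were negative. AT3G05610 had 87.3, 91.4 and 83.5 CPM in uncut libraries. Libraries of 2.5 h held 102, 79.9 and 53.2, those of 14 h 56.5, 60.3 and 52.2 and those of 16 h 71.3, 53.9 and 73.6 CPM. All 14 h and 16 h libraries lay below the uncut ones, and the 2.5 h libraries spread across them. Its log2 fold change was -0.63 ± 0.12 (SE) at 14 h (edgeR adjusted p = 0.0113) and -0.41 ± 0.16 at 16 h (0.132, not past the threshold). VGDH1, a homolog of the pollen tube enzyme VGD1, had 110, 94.3 and 95.5 CPM in uncut libraries and 59.98, 69.2 and 74.1 at 14 h. It fell by 0.56 ± 0.13 at 14 h (adjusted p = 0.0286), and at 16 h it stood at 80.2, 47.7 and 93.9. VGD1 itself had 65.6 ± 4.37 CPM in uncut libraries, 44.8 ± 3.79 at 2.5 h, 43.1 ± 12.9 at 14 h and 47.8 ± 5.89 at 16 h. Its regenerating libraries all lay below the uncut ones, and it did not pass the threshold at any time (adjusted p = 0.375, 0.0895 and 0.0974).

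AT5G51490 and AT3G47400 were the genes of this class that fell at both late times. AT5G51490 had 100.01, 87.9 and 78.1 CPM in uncut libraries, 65.1, 54.4 and 50.4 at 14 h and 50.7, 62.6 and 58.3 at 16 h. No late library reached the uncut range, whereas the 2.5 h libraries stood at 108, 160 and 70.6. The log2 fold changes were -0.65 ± 0.15 at 14 h (adjusted p = 0.0265) and -0.63 ± 0.16 at 16 h (0.038). AT3G47400 fell from 102 ± 8.25 to 57.7 ± 18.8 CPM at 14 h (log2 fold change -0.82 ± 0.22, adjusted p = 0.0485) and to 61.6 ± 3.13 at 16 h (-0.73 ± 0.14, adjusted p = 0.0132). AT5G04970 (-0.62) and AT4G03930 (-1.09) fell at 14 h. AT4G15980 was the 1 member that rose, from 25.6, 28.1 and 25.5 CPM to 41.1, 47.1 and 37.7 at 14 h (log2 fold change 0.66 ± 0.15, adjusted p = 0.0274). Its 14 h and 16 h libraries were all above the uncut ones. PME17, known from pathogen defence, had 74.7 ± 4.26 CPM in uncut libraries and 68.2 ± 7.01 at 14 h, and PME41 had 40.6 ± 0.889 and 42.2 ± 4.92, in overlapping ranges.

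Inhibitors passed in both directions, at shares near or below those of all genes. Of 65 with a shared region, 3 fell and 2 rose at 14 h, and 3 fell and 1 rose at 16 h, with medians of -0.12 and -0.04. That is 4.62% lower and 3.08% higher at 14 h, against 7.5% and 2.68% of all genes. At 16 h it is 4.62% and 1.54%, against 6.28% and 2.46%. AT1G14890 had 62.8, 54.1 and 46.7 CPM in uncut libraries. At 2.5 h the libraries held 46.7, 36.7 and 13.3, those of 14 h 27.3, 28.2 and 16.2 and those of 16 h 23.3, 23.1 and 26.7 CPM. Every regenerating library was below the lowest uncut one, 2.5 h replicate 1 by less than the printed digits show. Its log2 fold change was -1.20 ± 0.23 at 14 h (adjusted p = 0.0122) and -1.17 ± 0.19 at 16 h (0.00434). AT5G38610 (-0.66) and AT5G20740 (-0.50) also fell at 14 h.

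AT5G46950 had the largest rise among called pectin genes at 14 h, from a single exon region. Its levels were 6.98, 4.87 and 5.80 CPM in uncut libraries. The 2.5 h libraries held 10.8, 0 and 0, those of 14 h 16.5, 17.9 and 10.7 and those of 16 h 6.17, 14.4 and 4.05 CPM. The 14 h libraries alone were all above the uncut ones (log2 fold change 1.34 ± 0.31, adjusted p = 0.0269). AT1G54980 rose from 11.9, 12.4 and 12.7 CPM to 23.7, 19.1 and 22.5 at 14 h (0.82 ± 0.20, adjusted p = 0.0334). AT3G55680 was the pectin gene that rose at 16 h. It had 16.8, 17.7 and 15.4 CPM in uncut libraries. Libraries of 2.5 h held 34.0, 2.56 and 18.9, those of 14 h 21.9, 28.6 and 23.7 and those of 16 h 30.8, 34.4 and 22.7 CPM. All late libraries were above the uncut ones, and the log2 fold change was 0.57 ± 0.19 at 14 h (adjusted p = 0.0945) and 0.83 ± 0.21 at 16 h (0.0368).

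AT1G11362 and AT1G11593 fell at 16 h from low levels, each in 1 region. AT1G11362 had 7.84, 8.97 and 10.9 CPM in uncut libraries, 0 in every 2.5 h library, 5.02, 2.26 and 4.76 at 14 h and 1.37, 1.54 and 1.62 at 16 h (log2 fold change -2.60 ± 0.46, adjusted p = 0.00709). AT1G11593 went from 7.39 ± 0.263 to 1.41 ± 0.623 CPM (-2.29 ± 0.46, adjusted p = 0.0135). The best known inhibitors did not pass. PMEI1 had 53.4 ± 3.66 CPM in uncut libraries, 58.7 ± 3.84 at 14 h and 44.8 ± 14.6 at 16 h. PMEI6 had 61.0 ± 4.96, 43.8 ± 4.45 and 44.5 ± 10.997 CPM, with every late library below the uncut ones (adjusted p = 0.0579 and 0.14).

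The lyase-like class held most of the genes that fell. At 14 h 13 of 94 fell and none rose, and at 16 h 6 fell and none rose, with medians of -0.07 and -0.06. The shares lower were 13.8% and 6.38%, against 7.5% and 6.28% of all genes. AT1G43080 had the smallest p of all pectin genes at both late times. Its levels were 112, 99.4 and 93.9 CPM in uncut libraries. At 2.5 h the libraries held 13.9, 47.0 and 44.1, those of 14 h 30.2, 37.5 and 27.9 and those of 16 h 34.9, 29.8 and 34.0 CPM. All 9 regenerating libraries lay below every uncut library, and 2.5 h replicate 1 was the lowest. The log2 fold change was -1.68 ± 0.15 at 14 h (adjusted p = 0.000205), -1.64 ± 0.16 at 16 h (0.000146) and -1.56 ± 0.45 at 2.5 h (0.275). All 12 of its shared regions are intergenic and lie 2854 to 14365 bp downstream of its start, so the sum describes DNA beside the gene. Of the 12, 10 at 2.5 h, 11 at 14 h and 9 at 16 h had all 3 libraries below uncut. Intergenic regions were called lower more often than others over the whole genome, at 19.8% of 15612 at 14 h and 22.9% of 15598 at 16 h.

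**Figure D5:**
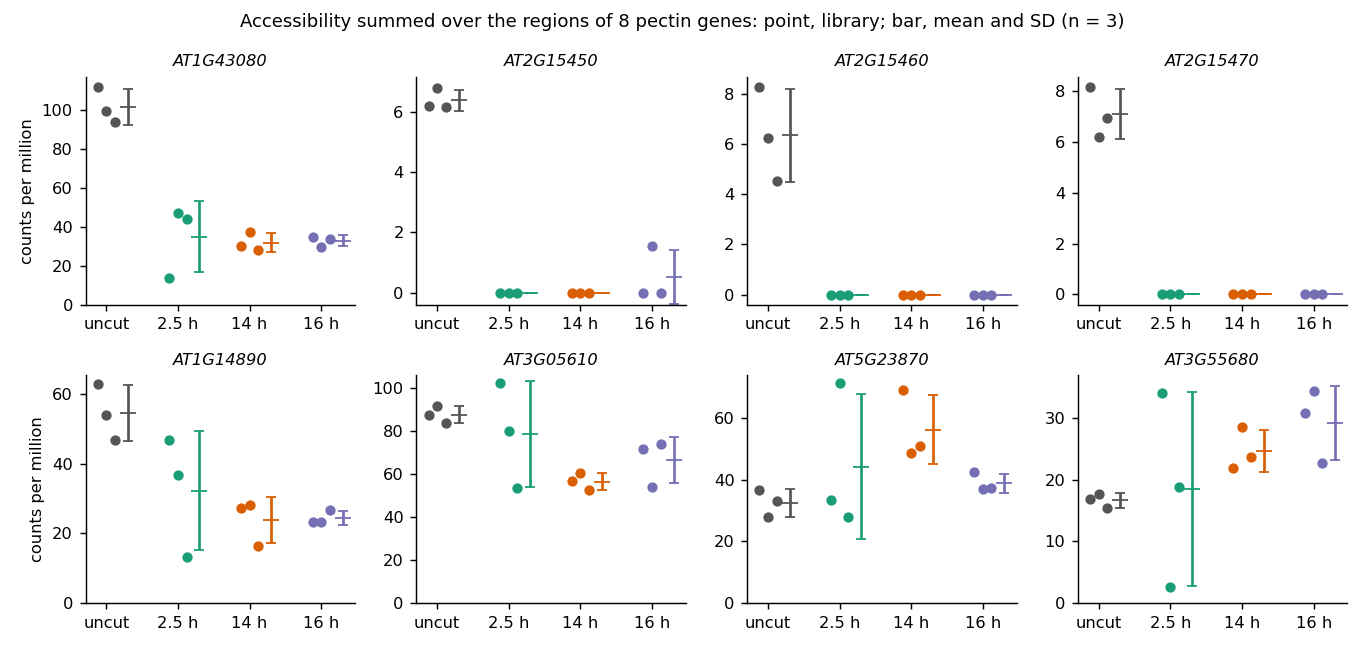
The vertical axis of each panel is the level of 1 of 8 pectin genes in CPM summed over its regions, and the horizontal axis is the group. Points are the 3 libraries of a group and the bar beside them is their mean with its SD; AT1G43080 falls from 93.9 to 112 CPM in uncut libraries to 13.9 to 47.0 in regenerating ones, and AT2G15460 and AT2G15470 are at 0 in every regenerating library.

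AT2G15450, AT2G15460 and AT2G15470 stand next to each other on chromosome 2, and each had 1 shared region, in its promoter. The regions were chr2:6746908-6747022, chr2:6750308-6750388 and chr2:6753666-6753801 in TAIR10, at -571, -586 and -597 bp from the start of the gene. In uncut libraries AT2G15450 had 6.20, 6.80 and 6.17 CPM, AT2G15460 had 8.27, 6.27 and 4.52, and AT2G15470 had 8.15, 6.22 and 6.97. All regenerating libraries were at 0 for all 3 genes, except 16 h replicate 2 at 1.54 CPM for AT2G15450. Against a floor of 3 counts over the group, AT2G15450, AT2G15460 and AT2G15470 were at least 60.3-fold, 59.99-fold and 67.2-fold lower at 14 h (adjusted p = 0.000859, 0.00142 and 0.000793). At 16 h AT2G15460 and AT2G15470 were at least 9.83-fold and 11.01-fold lower (adjusted p = 0.0132 and 0.00529). AT2G15450 held 3 reads at 16 h and 416 in uncut libraries, a ratio of 0.101 with an exact 95% counting interval of 0.0208 to 0.298 (adjusted p = 0.0176). At 2.5 h the bounds were 16.3-fold, 16.2-fold and 18.1-fold, and none passed (adjusted p = 0.0826, 0.0828 and 0.0826). Neighbouring copies can share reads, and how reads that match several of them were counted is not given in the sources used here, so the 3 values are uncertain as separate results. The plant line and excision cannot be told apart in this result.

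The other lyase-like genes that fell did so by smaller amounts. AT3G42950 had 68.9, 66.8 and 63.5 CPM in uncut libraries and 33.2, 42.2 and 33.1 at 14 h (log2 fold change -0.88 ± 0.14, adjusted p = 0.00586). At 16 h its libraries stood at 64.4, 24.6 and 47.7, and the first overlapped uncut roots. AT1G11370 had 44.4, 45.1 and 44.6 CPM in uncut libraries, 6.70, 9.82 and 39.9 at 2.5 h and 22.4, 25.4 and 28.4 at 14 h (-0.81 ± 0.15, adjusted p = 0.0107), all below uncut. AT4G22090 and AT3G17060 fell at both late times, by 1.098 and 1.11 at 14 h and by 0.97 and 1.03 at 16 h on the log2 scale. AT3G07850, AT3G07830, AT1G05660, AT5G04310 and AT1G60590 fell at 14 h only past the threshold, with log2 fold changes of -0.84, -0.90, -0.87, -0.45 and -0.54. Their 16 h values were -0.52, -0.38, -0.39, -0.30 and -0.82, and the difference between the times was not past the threshold for any pectin gene.

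Enzymes known from pollen and fruit separation also have the lyase-like text. QRT1, a PME that lets pollen grains part, had 30.5, 29.5 and 29.0 CPM in uncut libraries. The 2.5 h libraries held 51.3, 34.2 and 106, those of 14 h 31.4, 31.6 and 37.97 and those of 16 h 35.6, 43.6 and 37.2 CPM. Every regenerating library was above every uncut one, yet no time passed (adjusted p = 0.461, 0.469 and 0.155). QRT2 and ADPG1, polygalacturonases that act with it in pollen and in dehiscence, had 59.8 ± 4.61 and 20.6 ± 2.68 CPM in uncut libraries, 67.6 ± 29.2 and 22.8 ± 4.68 at 14 h and 81.7 ± 8.08 and 18.4 ± 4.10 at 16 h. QRT3 had 36.9 ± 4.03 CPM in uncut libraries and 58.4 ± 9.16 at 2.5 h, with no overlap, and did not pass (adjusted p = 0.378). Its exon region chr4:10851698-10851722 went the other way, with 1.86, 2.05 and 2.53 CPM in uncut libraries and no read at 2.5 h, at least 6.34-fold lower (adjusted p over regions = 0.0113 by edgeR and 0.461 by DESeq2). PGX1, a polygalacturonase of expanding cells, had 43.7 ± 4.005, 44.8 ± 2.63 and 55.4 ± 8.73 CPM in uncut, 14 h and 16 h libraries. PPME1, a pollen PME, had 37.1 ± 3.31 and 25.2 ± 5.73 in uncut and 14 h libraries (adjusted p = 0.107), and PME5, which softens walls at the shoot tip, had 106 ± 8.31 and 81.1 ± 15.04 (0.143). Of 5 genes listed as pollen markers, 4 had a shared region, namely VGD1, VGDH1, PPME1 and HAP2, of which the first 3 are pectin genes themselves. They summed to 235 to 255 CPM in uncut libraries, 182 to 275 at 2.5 h, 147 to 180 at 14 h and 168 to 207 at 16 h, below the uncut range at both late times and across it at 2.5 h.

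Acetylesterases were the class with rises and no falls at 14 h. Of 12, 2 passed, AT5G23870 (PAE9) and AT3G62060, and the class median was 0.20, with 9 of 12 positive. The 2 are 16.7% of a small class, against 2.68% higher among all genes. PAE9, which removes acetyl groups from pectin, had 36.5, 27.8 and 33.1 CPM in uncut libraries. Libraries of 2.5 h held 33.5, 71.3 and 28.0, those of 14 h 69.1, 48.6 and 51.0 and those of 16 h 42.5, 37.0 and 37.2 CPM. Its 14 h and 16 h libraries were all above uncut, the former further. The log2 fold change was 0.79 ± 0.18 at 14 h (adjusted p = 0.027) and 0.26 ± 0.18 at 16 h (0.384). AT3G62060 had 21.3, 23.1 and 21.5 CPM in uncut libraries, 34.8, 38.1 and 30.3 at 14 h (0.64 ± 0.16, adjusted p = 0.0395) and 23.3, 25.7 and 25.9 at 16 h (0.18 ± 0.19, 0.573). PAE8, a relative of PAE9 with the same activity, had 16.4 ± 1.30 CPM in uncut libraries and 14.6 ± 5.57 at 14 h. At 16 h 0 of 12 passed and the median was 0.09. All 5 genes with a pectinesterase text and an unknown domain were positive at 14 h, with a median of 0.42, and none passed.

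At 2.5 h the pectin genes with no read in any library were 6 low genes. They were the inhibitors AT3G17150 (9.79 ± 1.53 CPM in uncut libraries), AT1G11362 (9.22 ± 1.52) and EDA24 (4.001 ± 0.211), and the 3 neighbours on chromosome 2. Bounds for AT3G17150, AT1G11362 and EDA24 were at least 24.96-fold, 23.5-fold and 10.2-fold lower, none past the threshold (adjusted p = 0.0826 each). At later times AT3G17150 stood at 10.9, 12.6 and 4.60 CPM (14 h) and 10.3, 22.6 and 4.05 (16 h), and EDA24 at 6.82, 5.91 and 3.96 and at 4.11, 3.59 and 3.24. These later libraries surround the uncut level.

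Between the regenerating groups, which share the line and the sort, no pectin gene passed. For 14 h against 2.5 h 0 of 218 passed in either direction (0% of 27981 genes), and for 16 h against 2.5 h 0 of 208 (0% of 26799), by edgeR. At an unadjusted p under 0.05, 6 pectin genes were higher and 4 lower at 14 h, and 3 and 3 at 16 h. DESeq2 called 3 and 1 higher, respectively, and 0 lower. Over all genes 1442 and 962 had such a p, and DESeq2 called 249 and 104 higher and 243 and 42 lower. For 16 h against 14 h 0 of 217 pectin genes passed, where 2 genes (0.00714%) of 28025 were higher and 0% lower. At an unadjusted p under 0.05, 8 pectin genes were higher and 2 lower, and DESeq2 called 0. Over all genes 1221 had such a p, and DESeq2 called 1 higher. The smallest p of a pectin gene in the last comparison belonged to PMEI2, an inhibitor known from pollen tubes. It had 31.2, 35.5 and 30.4 CPM in uncut libraries, 54.96, 34.7 and 42.0 at 14 h and 20.6, 24.1 and 20.2 at 16 h. The 14 and 16 h libraries did not overlap, and the log2 fold change was -1.01 ± 0.33 (adjusted p = 1.00 by edgeR). Simulated 4-fold changes were called for 3%, 9% and 73% of changed genes in these 3 comparisons, again with the same spread in both groups. The lack of calls against 2.5 h therefore does not show that these genes stayed the same.

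Region by region, 10 of 692 regions rose and 16 fell at 14 h, or 1.45% and 2.31%, against 0.835% and 5.16% of 99045 regions. At 16 h 14 rose and 29 fell (2.02% and 4.19%, against 2.21% and 6.67% of 99001). At 2.5 h 0 rose and 40 fell (5.78%, against 0.0445% higher and 7.95% lower of 98968), and 36 of the 40 had no read in any 2.5 h library. Without uncut replicate 1, 2 or 3, 4 regions fell at 14 h and 0 rose, 3, 3 or 4 fell and 0 rose at 16 h, and 21, 19 or 17 fell at 2.5 h. Without regenerating replicate 1, 2 or 3, 30, 21 or 24 rose and 57, 31 or 21 fell at 14 h. For 16 h 21, 15 or 31 rose and 39, 53 or 42 fell, and for 2.5 h 94, 89 or 90 fell. Of all regions, without an uncut replicate 37, 36 or 47 rose and 2684, 2885 or 3003 fell at 14 h. For 16 h 62, 65 or 77 rose and 2219, 2445 or 2614 fell, and for 2.5 h 3846, 3472 or 3346 fell. Without a regenerating replicate 4951, 3477 or 2706 of all regions rose and 9877, 7275 or 6849 fell at 14 h. For 16 h 4020, 3657 or 4396 rose and 7719, 8098 or 8099 fell, and for 2.5 h 16504, 17087 or 14171 fell. In exons 5 of 390 regions fell at 14 h (1.28%, against 1.98% of all exon regions) and 12 of 390 at 16 h (3.08%, against 2.98%). In intergenic DNA 5 of 43 and 8 of 43 fell (11.6% and 18.6%, against 19.8% and 22.9%). AT1G43080 held 12 of these 43 and 4 and 5 of the falls, which leaves 1 of 31 and 3 of 31 for the other genes. On chromosomes 3 and 5 no pectin gene region was without reads at 14 h or 16 h, and the 4 and 3 such regions lay on chromosomes 1, 2 and 4. Over all genes, 4 of 42327 regions on chromosomes 3 and 5 and 1980 of 56725 on the others had no read at 14 h. When chromosomes 3 and 5 were fitted alone, 0 of 329 regions passed at 14 h and at 16 h. Few regions of any gene did: 20 were higher and 185 lower of 42325 at 14 h, and 38 and 143 of 42311 at 16 h. Gene sums on these chromosomes gave 2 higher and 11 lower of 106 at 14 h, beside 176 and 541 of all 12073 genes.

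Rises of single regions lay inside genes as well as at their edges. An exon region of AT3G27400, a lyase-like gene (chr3:10141470-10141565), had 4.74, 4.88 and 6.19 CPM in uncut libraries and 14.9, 12.9 and 14.4 at 14 h, all higher (log2 fold change 1.42 ± 0.25). An intron region of PAE9 (chr5:8048248-8048390) had 6.76, 7.37 and 8.66 CPM and then 27.6, 14.8 and 19.6 (1.44 ± 0.28). At 16 h a region 2302 bp downstream of the start of QRT2, annotated to the end of the neighbouring AT3G07980 (chr3:2543164-2543267), had 13.3, 11.4 and 18.1 CPM against 4.15, 4.78 and 3.93 in uncut libraries (1.71 ± 0.32). The promoter region of AT3G55680 (chr3:20666112-20666320) had 10.9, 10.1 and 9.30 CPM in uncut libraries and 17.1, 20.2 and 20.6 at 14 h (0.93 ± 0.20). Among falls, the last exon of AT1G11370 (chr1:3828025-3828577) went from 27.2, 26.9 and 28.7 CPM to 9.16, 12.7 and 13.2 at 14 h (-1.24 ± 0.20). All 5 passed edgeR's test over all regions, and each separated its groups fully. The rises described lie on chromosomes 3 and 5, and none of them passed when these chromosomes were fitted alone. Nor did any of these rises pass once an uncut replicate, whichever it was, had been left out.

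Genes that make, cut or sense pectin without the word in their text were also listed. Of 50 such genes, 0 rose and 4 fell at 14 h, 1 rose and 2 fell at 16 h, and none passed at 2.5 h, with medians of -0.11, -0.17 and -0.04. That is 8.0% lower at 14 h, where all genes had 7.5%, and 2.0% higher and 4.0% lower at 16 h, where all genes had 2.46% and 6.28%. GAUT12, a glycosyltransferase of xylan and pectin synthesis, had 45.7, 39.9 and 36.4 CPM in uncut libraries and 19.95, 15.98 and 15.3 at 14 h (-1.26 ± 0.18, adjusted p = 0.00295). WAK2, a wall-bound kinase that binds pectin, had 69.8, 76.0 and 69.0 CPM in uncut libraries, 28.4, 24.9 and 6.98 at 14 h and 17.1, 10.8 and 29.1 at 16 h. All late libraries were below the uncut ones, and WAK2 fell by 1.86 ± 0.41 at 14 h (adjusted p = 0.0228) and by 1.98 ± 0.27 at 16 h (0.00139). The pectate lyase AT1G67750 (-0.55) and GAUT9 (-0.61) fell at 14 h, and the pectate lyase AT3G01270 (-0.87) fell and GAUT7 (0.96), which anchors the galacturonosyltransferase complex, rose at 16 h.

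In the authors' deposited table for 14 h, 192 of 972 regions of pectin genes had an adjusted p under 0.05 and a higher level, and 146 a lower one, or 19.8% and 15.02%, beside 19.9% and 14.5% of 136923 regions. Most of the higher ones belong to the 14 h region set alone: of the 265 regions found only there, 185 were higher in the authors' deposited table (69.8%, beside 74.1% of all 35143 such regions). Among the 692 shared regions, the authors' deposited table had 7 higher and 140 lower, or 1.01% and 20.2%, beside 1.11% and 19.5% of all 99048.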

How the data were processed

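Whole-number counts of reads per region were deposited by the authors, 1 file per library, on region sets that differ between groups. Tables of the authors give a log2 fold change, an adjusted p-value and, per the file headers, a distance to the transcription start in bp and a gene description per region. Per the submitters' processing notes, Bowtie2, SAMtools, MACS2, DESeq2 and HOMER were used on TAIR10, without stated versions. How duplicates and reads with several matches were treated, and what counted the reads, is not given in the sources used here; either could change the counts of repeated genes. Those tables also hold normalized columns for single libraries, 18 in all, which were not used.

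Genes were taken from the 14 h and 2.5 h tables, whose gene columns matched for 99.8% of 9063 shared regions; the members and lists were chosen with earlier results of these data known. All 234 loci matched the RefSeq gene table used for symbols. Counts were summed per gene over regions with identical coordinates in all 12 files and scaled by TMM. Each of 6 comparisons was fitted on its 6 libraries with edgeR 4.0.16 (R 4.3.3; filterByExpr, quasi-likelihood F test), with Benjamini-Hochberg adjustment over all genes and a threshold of 0.05, and likewise for regions in the 3 comparisons with uncut roots. SE is the absolute log2 fold change over the square root of F. Alternatives were DESeq2 1.42.0, other scalings, no filter, a replicate block, all 12 libraries, other region choices and each library left out. The fits were tested on simulated counts, drawn with the same spread per gene in both groups. A count of 0 was set to a floor of 3 counts over the group; floors and intervals cover counting error only, since PCR copies may be counted more than once.

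Named genes were, per comparison, up to 10 higher and 10 lower with the smallest p past the threshold, the 5 highest per kb in uncut roots, up to 5 with no read in a group, and members with known symbols; regions were up to 6 per direction. The other called genes, EDA24 and the 13 genes without a shared region were named after their values were seen, and only some of the ruled regions are described. No genome sequence was used here.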

Additional observations from a re-analysis of the deposited data

Results flagged for a closer look

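The 13 pectin genes without a shared region carry reads in data that the comparisons do not use. All 13 had more than 3 reads in each 14 h library, in regions of the 14 h set. These genes are on the list only through that set, so reads there follow from how they were chosen and show no change. They were the inhibitors AT1G23205, AT3G62180, AT4G02250, AT5G46930, AT5G46960, UNE11 and AT4G12390, the lyase-like genes AT3G24670, AT4G13210, AT4G32375, AT5G27530 and AT5G48900, and the PME AT3G28922. The highest was UNE11, with 44.6, 46.0 and 49.7 CPM (by all reads in regions) at 14 h over 2 regions, and the lowest AT5G48900, with 2.39, 8.22 and 1.67 over 1. In the 2.5 h files these genes had 0 regions, and no comparison was made.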

How the results depend on the processing

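Counts are given as pectin genes higher and lower. DESeq2 gave 5 and 10 at 2.5 h, 12 and 32 at 14 h (the lower count within 1.5 times), 16 and 25 at 16 h, 3 higher for 14 h and 1 higher for 16 h against 2.5 h, and for regions 1 higher (2.5 h), 41 and 72 (14 h), 38 and 53 (16 h). Fitting all 12 libraries at once gave 0 and 7 (2.5 h), 0 and 4 (14 h), 0 and 0 (16 h), and 3 higher for 14 h and 2 higher for 16 h against 2.5 h. For regions it gave 0 and 4 at 14 h and 0 and 3 at 16 h. Over all genes that fit gave 37 and 656 (2.5 h), 5 and 466 (14 h), and 7 and 220 (16 h). Over all regions it gave 18 and 2292 at 14 h and 16 and 1455 at 16 h. Total counts gave 10 and 14 at 14 h, 4 higher at 16 h and 1 region higher at 2.5 h. Chromosomes 3 and 5 alone gave 2 and 11 at 14 h, 0 and 1 at 16 h, and for regions 9 lower (2.5 h), 0 and 0 (14 h), 0 and 0 (16 h), with fewer genes tested (106) and fewer regions (329). Regions within 1000 bp of a start gave 1 and 11 at 14 h among 199 genes, where AT1G60590 turned from a fall to a log2 fold change of 0.0406. The replicate number as a block gave 2 higher at 14 h, 0 higher at 16 h, and for regions 0 lower (2.5 h), 0 and 9 (14 h), 2 and 10 (16 h). Libraries with the same number did not deviate together more than others (correlations of -0.056 to 0.008, and -0.036 to 0.052 for other pairs). With 3 libraries per group this cannot settle whether they share a batch. The cause of these moves was not tested.

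Leaving out 1 library gave 0 to 1 higher and 0 to 15 lower at 2.5 h, 0 to 12 and 4 to 37 at 14 h, 0 to 8 and 4 to 27 at 16 h, and 0 to 0 in the comparisons between times. For regions it gave 0 to 13 higher and 17 to 94 lower at 2.5 h, 0 to 30 and 4 to 57 at 14 h, and 0 to 31 and 3 to 53 at 16 h. Of the calls, 23 of 27 at 14 h and 7 of 12 at 16 h were lost without some uncut library. No filter, DESeq2 size factors and regions shared by the pair kept every gene count within 1.5 times, and the pair and start-distance settings were not run for regions. A left-out library leaves 2 in its group. Precision at 2.5 h and 16 h was limited by depth and spread: 3 counts are 0.774 to 2.098 CPM in a 2.5 h library and 1.54 to 2.43 at 16 h, against 0.117 to 0.160 in uncut ones.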
